A study of Mus musculus with 4 samples.

Results

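Hbegf, Tgfa, Btc and Ereg encode ligands of the epidermal growth factor receptor (EGFR) other than amphiregulin (Areg) and EGF. The 4 genes were found by symbol among the 32227 genes of 4 single-cell RNA libraries of mouse gastric corpus epithelium, the acid-secreting body of the stomach. The animals were wild-type C57BL6/J mice 6 to 7 weeks old, and L635, a compound that injures parietal cells, was given by mouth in a single dose of 350 mg/kg. TrypLE, an enzyme mix, was used with Y27632 to free the cells, which were captured in particle-templated emulsions (PIPseq). One library came from untreated animals that received PBS, 1 from animals 1 day after L635, 1 from animals 3 days after L635 that also received AREG, and 1 from animals 3 days after L635 alone. The labels give neither the number of animals behind each library nor the dose, route or timing of AREG. With 1 library per group there was no replicate, so differences carry no test.

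The EGF family ligands are made as membrane-anchored precursors. Metalloproteases such as ADAM17 and ADAM10 cut them free, and the released or still tethered ligand binds a receptor of the ERBB family on the same or a neighbouring cell. HB-EGF (from Hbegf), betacellulin (Btc) and epiregulin (Ereg) bind both EGFR and ERBB4, whereas TGF-alpha (Tgfa) binds EGFR. In the stomach, TGF-alpha is known as a product of surface and parietal cells that restrains acid secretion, and its excess in transgenic mice expands the surface mucous cells.

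There were 13812 epithelial cells from untreated animals, 3738 at day 1, 12908 at day 3 with AREG and 7964 at day 3, with a median of 2515.5, 2916, 2685 and 3013 unique molecular identifiers (UMIs, each standing for a captured RNA molecule) per cell in that order. A library held 56007532 to 98893436 UMIs in all. The libraries shared 0 to 3 cell barcodes in any pair. Levels are given as CPM, the usual scaling of a gene's UMIs by the total UMIs of the cells summed. The pan-epithelial genes Epcam, Krt8, Krt18 and Cdh1 were at 117 CPM or more in every library, and the leukocyte gene Ptprc and the fibroblast gene Col1a1 were at or below 1.98 CPM. The endothelial gene Pecam1 was at 2.18 to 2.65 CPM, and a list of 5 endothelial markers summed to 29.2 to 45.9 CPM. A 3' UMI count does not grow with transcript length, so levels of different genes are set side by side without a length correction. Intervals in parentheses are 95% exact Poisson intervals for levels and conditional exact binomial intervals for log2 ratios, and they cover counting error only.

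Ereg, Areg and Btc, with the ligand gene Epgn (epigen), are neighbours among the protein-coding genes of mouse chromosome 5, in the order Epgn, Ereg, Areg, Btc. Tgfa lies on chromosome 6 between Add2 and Fam136a. The gene order is that of RefSeq on GRCm38.p6, an older build than the GRCm39 of the counts. Pit-like cells, which line the gastric surface with mucus, held 64.9% of the untreated UMIs of Tgfa and 43.8% of those of Btc. They held 35.3% of all untreated epithelial UMIs. The 250 bases before the start are shown for Tgfa and Btc, the members for which a sequence window was at hand. They are RefSeq sequence, printed 5' to 3' in the direction of the gene, from GRCm38.p6, at chr6:86194972-86195221 on the plus strand for Tgfa and at chr5:91402995-91403244 on the minus strand for Btc. Capitals mark matches to the GC box GGGCGG or its reverse CCGCCC.
Tgfa: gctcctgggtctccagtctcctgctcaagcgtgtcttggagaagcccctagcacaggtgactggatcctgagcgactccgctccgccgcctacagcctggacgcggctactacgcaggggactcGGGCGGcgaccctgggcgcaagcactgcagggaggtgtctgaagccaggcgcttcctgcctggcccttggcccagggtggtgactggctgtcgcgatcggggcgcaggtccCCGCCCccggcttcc
Btc: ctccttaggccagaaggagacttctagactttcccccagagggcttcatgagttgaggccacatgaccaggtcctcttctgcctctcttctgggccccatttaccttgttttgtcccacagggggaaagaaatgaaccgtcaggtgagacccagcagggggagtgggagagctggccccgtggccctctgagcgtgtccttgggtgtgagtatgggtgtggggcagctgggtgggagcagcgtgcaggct
The Tgfa window held 2 GC box matches, at bases -126 to -121 and, reversed, at -15 to -10 before the start, and 69.2% of its bases were G or C. The Btc window held none and was 59.6% G or C, against a median of 52.4% over 32851 RefSeq windows. A GC box was present in 35.7% of those windows. Neither window held AP-1 (TGANTCA, present in 7.81% of windows), CRE (TGACGTCA, 1.79%), TEAD (GGAATG, 14.7%), E-box (CACGTG, 7.15%), antioxidant response core (TGACNNNGC, 12.4%) or TATA box (TATAAA, 13.6%) letters on either strand. Those shares count windows of 250 bases before and 50 after each start, and a match or its absence describes letters only.

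All 4 ligand genes had their highest level in the day 1 library. Hbegf (ENSMUSG00000024486), between Pfdn1 and Slc4a9 on chromosome 18, whose product binds heparan sulphate at the cell surface, was at 19.0 CPM in untreated epithelial cells, 54.1 at day 1, 22.4 at day 3 with AREG and 21.4 at day 3, from 900 to 2090 UMIs a library. Tgfa (ENSMUSG00000029999) was at 9.28, 26.3, 15.2 and 19.9 CPM in the same order, from 570 to 1016 UMIs. Btc (ENSMUSG00000082361) was at 7.30, 22.1, 12.1 and 10.9 CPM, from 448 to 854 UMIs. Ereg (ENSMUSG00000029377) was scarce throughout, at 0.0326 CPM untreated from 2 UMIs, 1.27 at day 1 from 49 UMIs, 0.0386 at day 3 with AREG from 2 UMIs and 0.143 at day 3 from 6 UMIs. The neighbouring Areg was at 6.47, 80.4, 4.51 and 3.74 CPM.

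**Figure D1:**
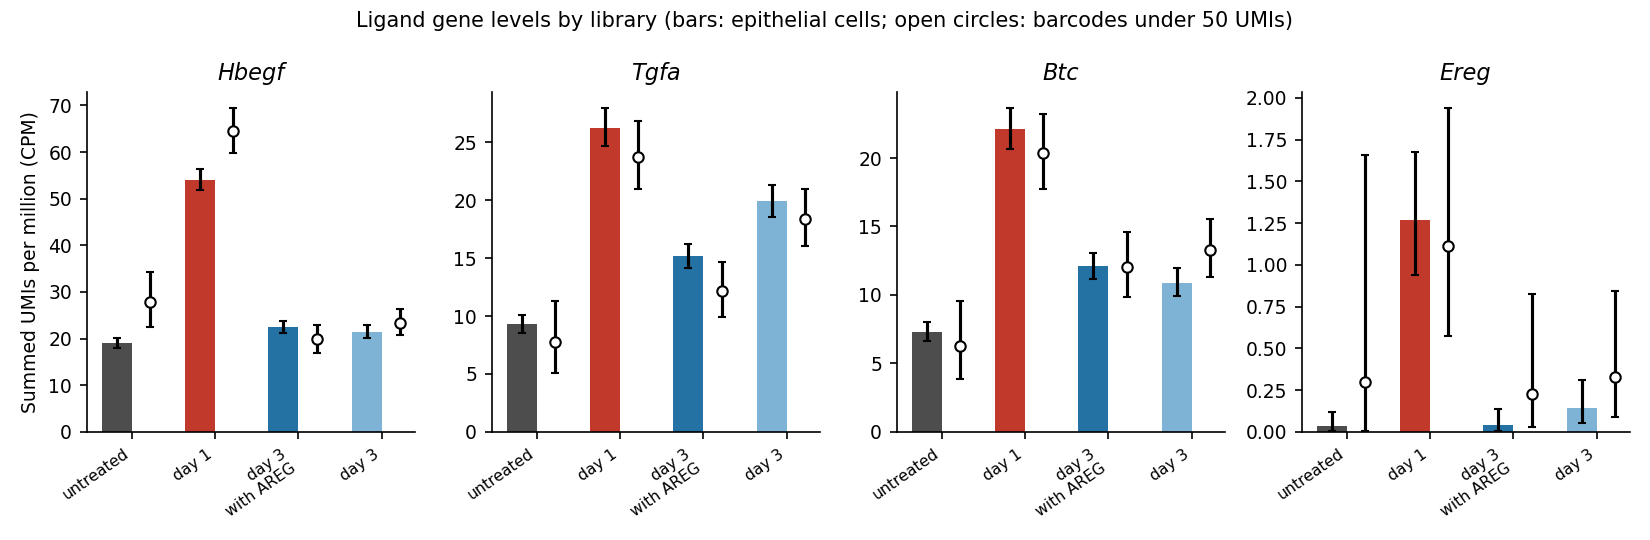
Level of each ligand gene (CPM, linear axes that differ between panels) in the 4 libraries; bars are summed epithelial cells, open circles are barcodes under 50 UMIs, and error bars are 95% Poisson intervals. Each gene is highest at day 1, with Hbegf at 54.1 CPM and Ereg at 1.27 CPM, and for Hbegf, Tgfa and Btc the open circles follow the same order of day 1 above the other libraries.

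The order Hbegf, Tgfa, Btc, Ereg from high to low held in each library. At day 3 the Hbegf (20.1 to 22.9 CPM) and Tgfa (18.6 to 21.3 CPM) intervals overlapped, and in the other libraries the 4 members' intervals did not overlap. Across libraries, Tgfa per total UMIs followed the order day 1, day 3, day 3 with AREG, untreated without overlap of intervals. For Hbegf and Btc the 2 day 3 libraries overlapped each other, and for Ereg the libraries other than day 1 did. Hbegf at day 3 also overlapped its untreated interval (17.9 to 20.1 CPM) at the edge. Areg was not at a fixed place in this order, being below all of Hbegf, Tgfa and Btc in the untreated library and above each at day 1.

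Barcodes under 50 UMIs, which carry free RNA and cell debris, also had their highest Hbegf, Tgfa and Btc levels at day 1. Hbegf there was at 27.9 CPM before injury, 64.5 at day 1, 19.8 at day 3 with AREG and 23.4 at day 3. Tgfa was at 7.73, 23.8, 12.1 and 18.4 CPM and Btc at 6.24, 20.3, 12.03 and 13.3 CPM in that order. Hbegf in these barcodes was above that of the cells, without overlap of intervals, in the untreated and day 1 libraries. The untreated intervals were 22.6 to 34.2 CPM in barcodes and 17.9 to 20.1 in cells. Among the libraries other than day 1, untreated Hbegf was highest in the barcodes and lowest in the cells. The part that free RNA had in the levels of cells was not tested. Untreated chief-like cells had 10.7 CPM of Hbegf and untreated chief-and-neck-like cells 60.9, on either side of the 27.9 CPM of the near-empty barcodes of their library.

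The comparison of day 1 with untreated, which shares libraries with the comparisons after it, addresses which ligand genes accompany acute injury. Hbegf was 2.84-fold higher at day 1, a log2 ratio of 1.51 (1.40 to 1.61), Tgfa 2.83-fold higher at 1.502 (1.35 to 1.65) and Btc 3.03-fold higher at 1.60 (1.43 to 1.77). Ereg had 49 UMIs at day 1 and 2 in the untreated library, a log2 ratio of 5.28 (3.35 to 8.37), and Areg stood at 3.64 (3.48 to 3.79). All 4 members were past 2-fold higher, and so were 26.5% of the 20846 genes with at least 10 UMIs over both libraries, while 6.73% were past 2-fold lower. The median log2 ratio of all these genes was 0.50, so Hbegf, Tgfa and Btc lay about 1 log2 unit above it. With edgeR's TMM factors in place of total UMIs the all-gene median was -0.01, 10.4% of genes were past 2-fold higher and 13.5% lower. Hbegf was then at 1.00, Tgfa at 0.99, Btc at 1.09 and Ereg at 4.77, so that Hbegf and Tgfa were just under 2-fold and 2 of the 4 members were past it. This scaling moves every gene by the same amount.

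**Figure D2:**
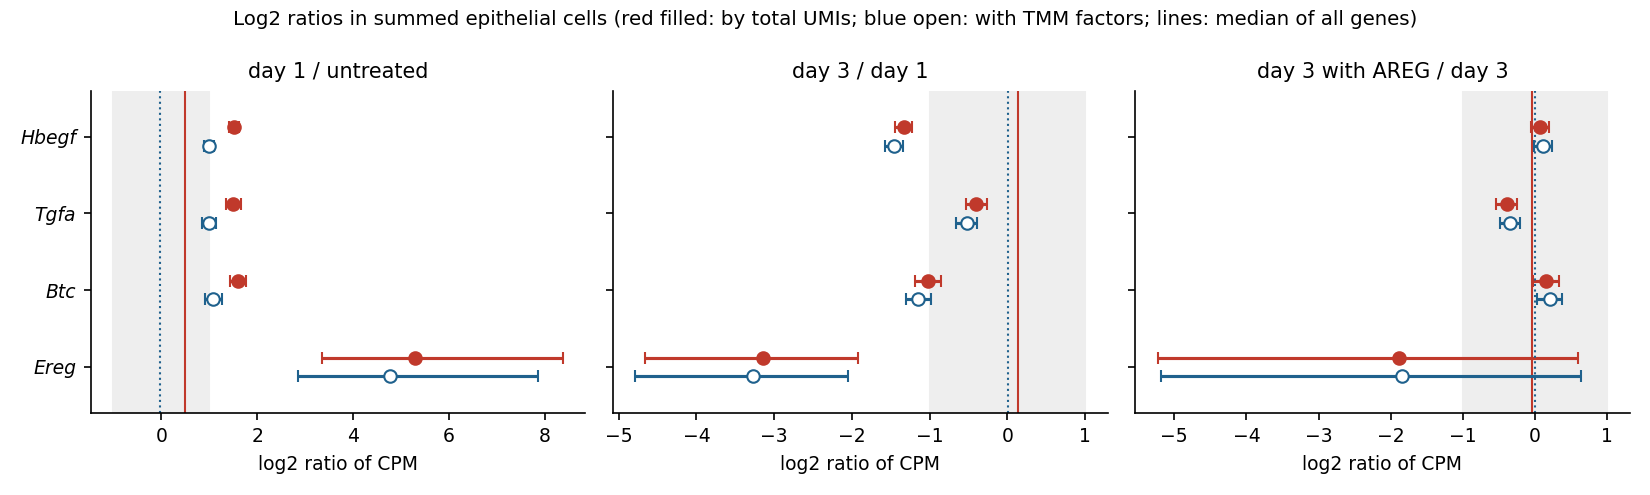
Log2 ratios of CPM in summed epithelial cells for the 3 comparisons, scaled by total UMIs (red, filled) and with TMM factors (blue, open); bars are 95% intervals for counting error, the grey band marks less than 2-fold, and vertical lines give the median of all genes under each scaling. At day 1 the 4 members lie right of both medians, with Ereg at 5.28 and the others between 1.502 and 1.60 by total UMIs.

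Cells in which a ligand gene was seen were also more frequent at day 1 than in the untreated library. After every cell was thinned to 500 UMIs, which left no epithelial cell out, 3.16% of day 1 cells had an Hbegf UMI against 1.19% of untreated cells. For Tgfa these shares were 1.12% at day 1 and 0.586% untreated, and for Btc 1.02% and 0.304%. Without thinning the shares were 23.6% and 6.603% for Hbegf, 18.4% and 3.90% for Tgfa, and 15.1% and 3.08% for Btc. No class here is known to lack these genes, so the lowest share in a named class of at least 100 cells is given for each library as a guide to background. For Hbegf it was 1.45% in day 1 pit-like cells (median 774 UMIs) and 0.763% in untreated chief-like cells (median 5120 UMIs). For Tgfa it was 0.704% in day 1 parietal-like cells (median 5319 UMIs) and 0.140% in untreated parietal-like cells (median 1859.5 UMIs). For Btc it was 0 of 101 day 1 proliferating-like cells (median 788 UMIs) and 0 of 1049 untreated chief-like cells, with exact binomial upper bounds of 3.59% and 0.351%. The 107 untreated cells with no class name had 0 Hbegf UMIs after thinning. The day 1 share of Tgfa thus lay close to its day 1 guide value, and that of Btc lay under the bound of its own. At day 3 the thinned Tgfa share was 1.18% (0.955 to 1.44), no lower than the 1.12% of day 1. Ereg was seen after thinning in 2 of 3738 day 1 cells and in 0 of 13812 untreated cells, which is too few to compare. Single cells carried little of a gene's total at day 1, at most 38 of 2090 Hbegf UMIs, 7 of 1016 Tgfa UMIs and 7 of 854 Btc UMIs.

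Markers of other tissues moved with day 1. The mesothelial list, 4 of 4 genes detected, summed to 115 CPM at day 1 and to 0.675 to 0.858 CPM in the other libraries, of which Msln made up 114 CPM at day 1 while Upk3b (0.595), Wt1 (0.647) and Lrrn4 (0.129) were near 0. The squamous list, 5 of 6 genes detected at day 1, summed to 53.8 CPM at day 1 and to 6.02 to 12.8 CPM in the other libraries. Ly6d made up 49.0 CPM of it and Krt13 3.42 CPM, whereas the defining keratins Krt5 and Krt14 were at 0.0259 and 0.233 CPM and Krt6a at 0. The erythroid list, 3 of 5 genes detected at day 1, summed to 4.58 CPM at day 1 and to 0.477 to 0.928 CPM in the other libraries. The part of these genes' cells in the ligand levels was not tested.

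The genes around the ligands were read from 5 lists, of receptors, shedding and transport genes, feedback genes, ERK response genes and other ligands. Beside the day 1 counts, the shares of all genes were 26.5% past 2-fold higher and 6.73% lower. Of 4 ERBB receptor genes, 3 were past 2-fold higher at day 1 and none lower. Egfr itself was at 14.6 CPM against 6.79 untreated, Erbb2, the ligandless partner, at 38.4 against 15.1, and Erbb3, the kinase-poor partner, at 56.1 against 20.7. Erbb4, the second receptor of HB-EGF and betacellulin, was at 10.6 against 6.81 CPM, within 2-fold. Of 20 genes of ligand shedding and transport, 11 were past 2-fold higher and 0 lower, with a median log2 ratio of 1.03 against 0.50 for all genes. The largest ratios among genes at 5 CPM or more were those of Adam8, at 8.26 against 0.0977 CPM, and of Rhbdf1, which escorts ADAM17 to the cell surface, at 8.82 against 1.86. Adam17 itself was at 14.6 against 9.09 CPM, within 2-fold, and Adam10 at 82.2 against 33.9.

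Of 15 feedback genes that damp EGFR and ERK signalling, 12 were past 2-fold higher and 0 lower, with a median of 1.40. Spry1 was at 10.8 against 2.77 CPM, Spred2 at 21.3 against 6.04 and Dusp5 at 15.4 against 4.66. Dusp6, an ERK phosphatase gene, was on the other side at 8.90 against 15.8 CPM. Of 11 ERK response genes, 7 were past 2-fold higher and 0 lower, with a median of 1.53, led by the urokinase receptor gene Plaur at 77.6 against 4.72 CPM and the AP-1 gene Fosl1 at 10.97 against 0.684. Beside 26.5% of all genes higher and 6.73% lower, 2 of 7 other ligand genes were past 2-fold higher and 1 lower. These were Areg, Nrg1 (a ligand of ERBB3 and ERBB4) at 114 against 47.8 CPM, and Egf at 0.776 against 6.22 CPM, while Epgn had 7 and 6 UMIs. With TMM factors the counts past 2-fold higher and lower were 0 and 0 of 4 receptors, 4 and 2 of 20 shedding and transport genes, 6 and 1 of 15 feedback genes, 6 and 0 of 11 ERK response genes, and 1 and 1 of 7 other ligands. The TMM medians were 0.71, 0.52, 0.89, 1.02 and -0.16 in that order, against -0.01 for all genes. Of all genes, 10.4% were past 2-fold higher and 13.5% lower under that scaling.

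The members lay in different cell classes, which were named from marker genes on clusters of all cells, so differences between classes are descriptions. Tgfa was higher in pit-like cells than in chief-like, chief-and-neck-like, parietal-like and proliferating-like cells of the same library, without overlap of intervals, in the libraries other than day 1. Untreated pit-like cells had 17.0 CPM (370 of 570 UMIs), those at day 3 with AREG 27.9 and those at day 3 38.6, against 5.04, 5.97 and 5.49 CPM in the other epithelial cells of each. In parietal-like cells it was at 4.05, 3.10 and 4.20 CPM in the same libraries, and in chief-and-neck-like cells at 5.12, 6.25 and 5.27 CPM. Tuft-like and unnamed epithelial cells of these libraries had 19.0 to 46.4 CPM of Tgfa from 1 to 25 UMIs each, with intervals that overlapped those of pit-like cells. At day 1 the 553 pit-like cells had 37.0 CPM from 26 UMIs, overlapping the 28.5 CPM of tuft-like and the 27.4 CPM of unnamed cells, and parietal-like cells had 11.05 CPM from 31 UMIs.

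Within the pit-like class Tgfa was uneven. Cluster 8, whose leading genes included Lypd8, Duox2 (a dual oxidase) and Slc5a5 (the sodium iodide symporter), had 53.5 CPM untreated (37.2 to 74.4), 44.9 at day 3 with AREG (39.3 to 51.1) and 49.9 at day 3 (45.3 to 54.9). Cluster 5, led by Muc5ac, Mt2 and Tff1, had 13.5, 17.6 and 24.2 CPM, and cluster 6, led by Lypd8l, Gkn1 and Gkn2, had 15.3, 25.2 and 25.8 CPM. Cluster 8 held 306 untreated cells, 1330 cells at day 3 with AREG and 1864 at day 3, and its Tgfa intervals overlapped in the 3 libraries.

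Hbegf followed another order of classes. Outside day 1 its highest level in an epithelial class was that of chief-and-neck-like cells, whose clusters were led by the chief cell genes Cblif and Pgc together with the neck cell gene Gkn3. They had 60.9 CPM untreated (54.5 to 67.8), 66.2 at day 1 from 15 UMIs, 52.3 at day 3 with AREG and 65.0 at day 3. The class joined different clusters, so these values do not follow 1 cluster across libraries. Cluster 1 held 94.7% of its untreated cells. Cluster 4 held 77.9% of them at day 1, 94.9% at day 3 with AREG and 94.1% at day 3. Chief-like cells, whose clusters had no neck gene in the lead, had 10.7 CPM in the untreated library. Pit-like cells had 11.2, 45.6, 21.4 and 15.7 CPM of Hbegf, and parietal-like cells 17.0, 65.6, 10.6 and 12.5 CPM. Endocrine-like cells had 46.8 CPM untreated from 42 UMIs (33.7 to 63.2), which overlapped the chief-and-neck-like interval, and 99.5 CPM at day 1 from 15 UMIs. Tuft-like cells had 28.5 CPM untreated and 14.3 at day 1, from 9 and 4 UMIs. The intervals of chief-and-neck-like, parietal-like and pit-like cells overlapped at day 1, on 15 to 184 UMIs each, whereas untreated chief-and-neck-like cells did not overlap the other pair.

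**Figure D3:**
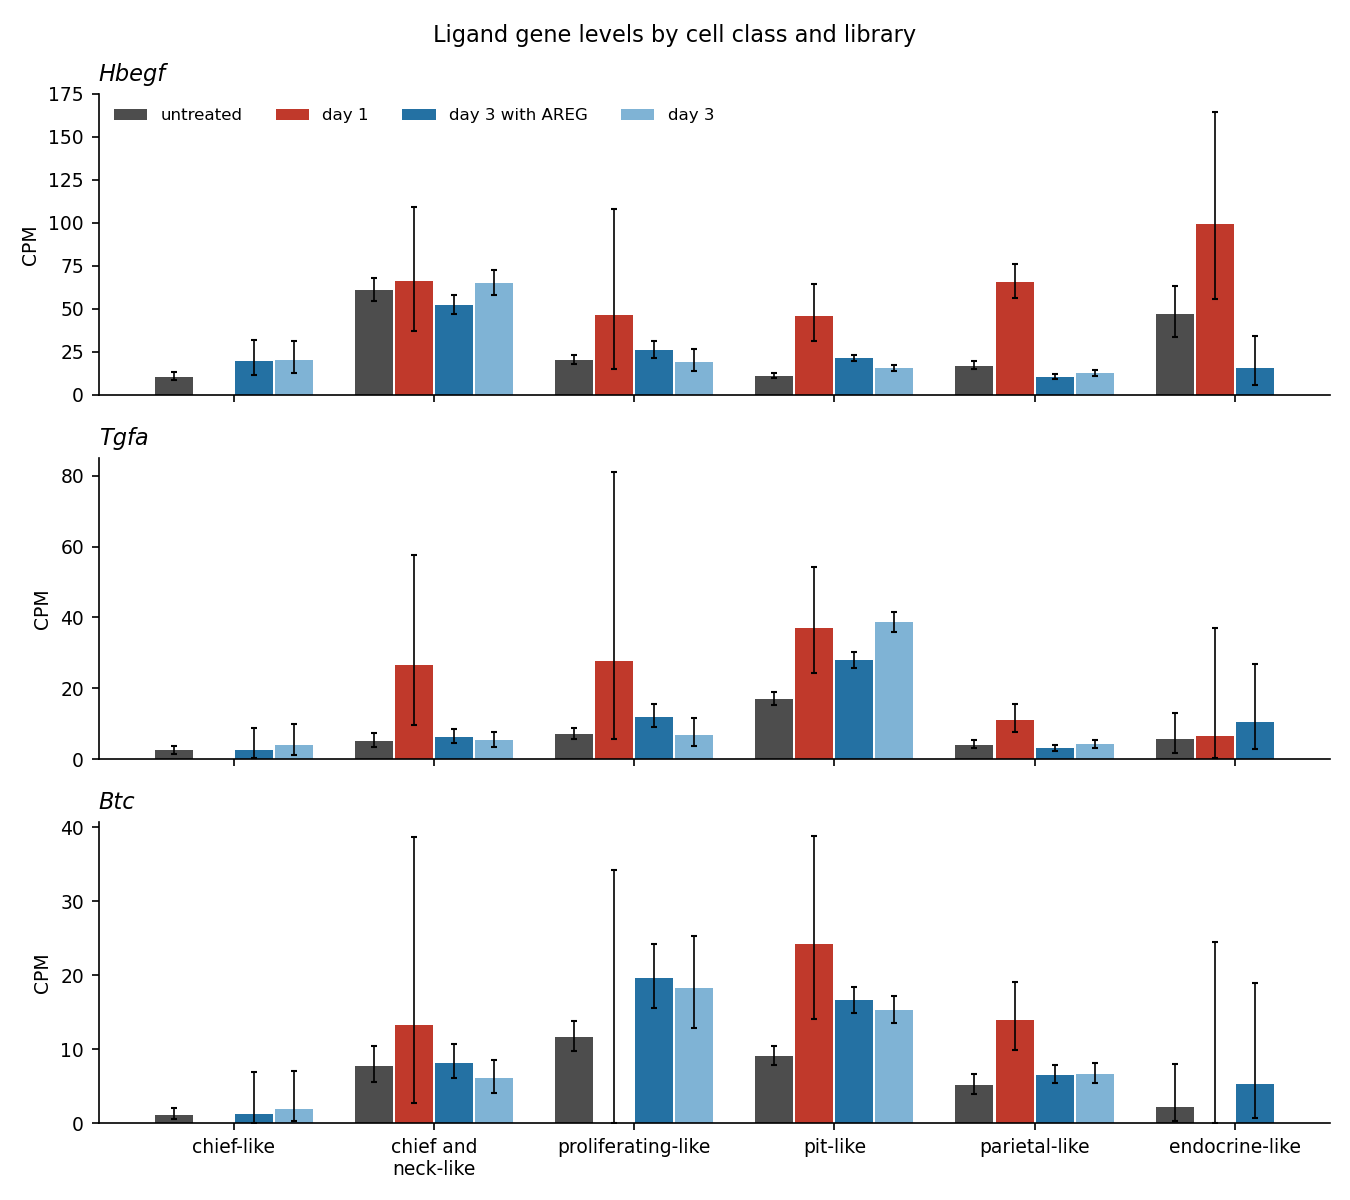
Levels of Hbegf, Tgfa and Btc (CPM, linear axes) in 6 cell classes of the 4 libraries, drawn where a class had at least 50 cells; error bars are 95% Poisson intervals. Among the classes drawn, Hbegf is highest in chief-and-neck-like cells outside day 1, at 52.3 to 65.0 CPM, and Tgfa in pit-like cells of every library, at 17.0 to 38.6 CPM.

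The untreated Hbegf value of the chief-and-neck-like class rested on a subset of its cells, found after its values were seen. At a finer clustering (Leiden resolution 2), 441 untreated cells, 3.19% of the epithelial cells there, formed a cluster with chief and proliferating markers. It was led by Pga5, Ccn1, Dnajb1, Tuba1b, Atf3, Hmgb2 and Stmn1 and held 316 Hbegf UMIs, 27.1% of all, at 98.9 CPM (88.3 to 110). Of its 441 cells, 283 belonged to the chief-and-neck-like class and 102 to the proliferating-like class. The cluster was picked for its Hbegf level, the highest among untreated clusters at this resolution. A lower class level without it therefore followed from that choice. Without the cluster the untreated chief-and-neck-like cells had 29.6 CPM (24.5 to 35.4), still above the 14.6 CPM (13.7 to 15.7) of all epithelial cells without the cluster. Fos was at 1710 CPM, Atf3 at 658 and Zfp36 at 441 in that cluster, against 314, 87.6 and 63.6 in all untreated epithelial cells. These immediate early genes are induced by growth factors and also by tissue dissociation, and their part in the Hbegf level was not tested. At day 3 and at day 3 with AREG the cluster had few cells, and the chief-and-neck-like class stood at 63.2 and 52.4 CPM without it.

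Over the 24 combinations of class and library with at least 100 cells, the gene whose log2(CPM + 1) was most like that of Hbegf among 9672 genes was Fos (Pearson r = 0.82), followed by Scara3 (0.81), Fosb (0.80), Actn1 (0.78) and Clu (0.76). For Tgfa the nearest were Cnnm4 (0.94), Sytl2 (0.94), Myo1a (0.93), Gldc (0.93) and Capn9 (0.92). For Btc they were Ankrd49 (0.90), Ipmk (0.90), Acer3 (0.89), Ski (0.88) and Sap30 (0.88). The members were less like one another, with r = 0.24 between Hbegf and Tgfa, 0.17 between Hbegf and Btc and 0.40 between Tgfa and Btc. These are descriptions: combinations of 1 library share its depth and its free RNA.

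**Figure D4:**
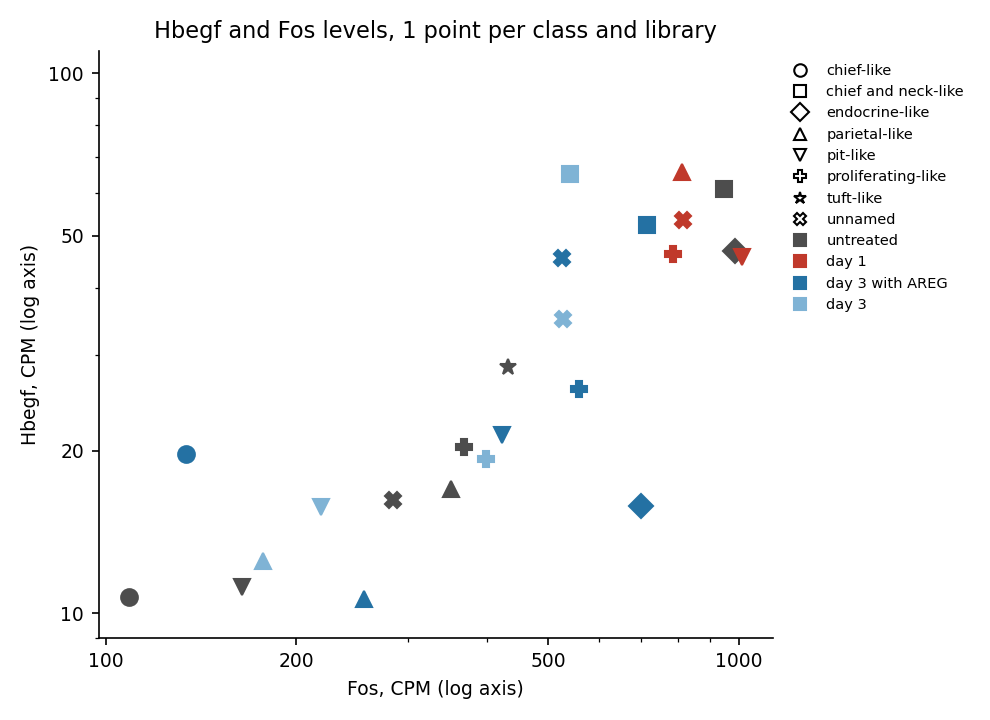
Hbegf against Fos (CPM, log axes), 1 point for each of the 24 combinations of cell class (shape) and library (colour) with at least 100 cells. The 2 measures go together in most points: day 1 pit-like cells are at 1010 CPM of Fos and 45.6 of Hbegf, untreated pit-like cells at 164 and 11.2, and endocrine-like cells at day 3 with AREG stand off at 699 and 15.8.

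Btc had its highest levels in proliferating-like and pit-like cells among the larger classes outside day 1. In the untreated library it was at 11.6 CPM in proliferating-like cells (130 UMIs), 9.03 in pit-like, 7.68 in chief-and-neck-like and 5.19 in parietal-like cells, and at 1.10 in chief-like cells. At day 3 with AREG proliferating-like and pit-like cells had 19.6 and 16.6 CPM, and at day 3 they had 18.3 and 15.3 CPM. Chief-like cells had 1.23 and 1.94 CPM there, from 1 and 2 UMIs. The 101 day 1 proliferating-like cells had 0 Btc UMIs, with an exact Poisson upper bound of 34.1 CPM, so no difference from the other libraries was detectable there.

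Within parietal-like and pit-like cells the day 1 levels per total UMIs were again higher for Hbegf, Tgfa and Btc. No all-gene median or TMM factor was computed within a class. In all epithelial cells that median was 0.50. Hbegf in parietal-like cells was at a log2 ratio of 1.95 (1.65 to 2.24) to untreated and in pit-like cells at 2.03 (1.45 to 2.56), while in chief-and-neck-like cells it was at 0.12 (-0.73 to 0.86). Tgfa stood at 1.45 (0.75 to 2.12) in parietal-like and 1.12 (0.49 to 1.69) in pit-like cells, and Btc at 1.42 in both (0.81 to 2.02 and 0.61 to 2.14). Different clusters held these classes, the chief-and-neck-like class included. Of the day 1 parietal-like cells 77.1% lay in cluster 27, led by Obp2a and Hamp2, and of the untreated ones 87.1% in cluster 0, led by Apoa1 and Hamp2. Day 1 pit-like cells had a median of 774 UMIs and untreated ones 2652. Hbegf, Tgfa and Btc in these day 1 cells were at 45.6, 37.0 and 24.2 CPM. Day 1 barcodes under 50 UMIs had 64.5, 23.8 and 20.3 CPM, and the part of free RNA was not tested.

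Most day 1 UMIs lay outside the named classes, in cluster 7. It held 2586 of the 3738 day 1 epithelial cells, was led by S100a6 and Lgals3, and was 97.7% day 1 cells, so that a cell type and a state of that library cannot be told apart. The unnamed cells, nearly all of this cluster, had 53.5 CPM of Hbegf, 27.4 of Tgfa, 23.1 of Btc and 1.40 of Ereg. Their share of the UMIs of Hbegf was 87.8%, of Tgfa 92.6% and of Btc 93.0%, against 88.8% of the UMIs of all genes.

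Clustered on its own, cluster 7 fell into 5 sub-clusters among which the ligand genes differed in level. Hbegf was at 90.1 CPM (84.2 to 96.4) in sub-cluster 3, led by Nupr1, Clps, Krt7, Msln and Sprr1a, and at 105 CPM (74.1 to 145) in the 38 cells of sub-cluster 4, led by Cblif and Chia1, with overlapping intervals. It was at 36.4 CPM in sub-cluster 1, led by the pit genes Gkn1 and Gkn2, and at 39.8 in sub-cluster 2, led by Cym, Spp1 and the mitotic genes Stmn1 and Birc5. Tgfa was highest in sub-cluster 1, at 36.6 CPM (33.4 to 40.03), against 20.1 in sub-cluster 2 and 24.3 in sub-cluster 3. Btc was highest in sub-cluster 2, at 28.7 CPM (25.6 to 32.1), against 20.7 in sub-cluster 1 and 21.2 in sub-cluster 3. Sub-cluster 0, 760 shallow cells with a median of 891.5 UMIs, had 64.0 CPM of Hbegf, 19.4 of Tgfa and 14.9 of Btc.

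Most Ereg UMIs of day 1 lay in sub-cluster 3. Its 326 cells, 8.72% of day 1 epithelial cells with 24.1% of their UMIs, held 41 of the 49 Ereg UMIs, at 4.39 CPM (3.15 to 5.96). The level was 0.154 CPM in sub-cluster 1 from 2 UMIs, 0.373 in sub-cluster 2 from 4 UMIs and 1.14 in sub-cluster 0 from 1 UMI. Areg had its peak in the same cells, at 240 CPM, and Msln stood there at 359 CPM with Krt5 at 0. Areg and Msln were both among the top 10 genes that set this sub-cluster apart. All 32 cells with an Ereg UMI in sub-cluster 3 also had an Areg UMI and 26 had an Hbegf UMI, against 74.5% (Areg) and 62.9% (Hbegf) of all cells of the sub-cluster. The Ereg cells were deeper, with a median of 34954.5 UMIs against 18367.5, and the part of depth in this overlap was not tested.

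**Figure D5:**
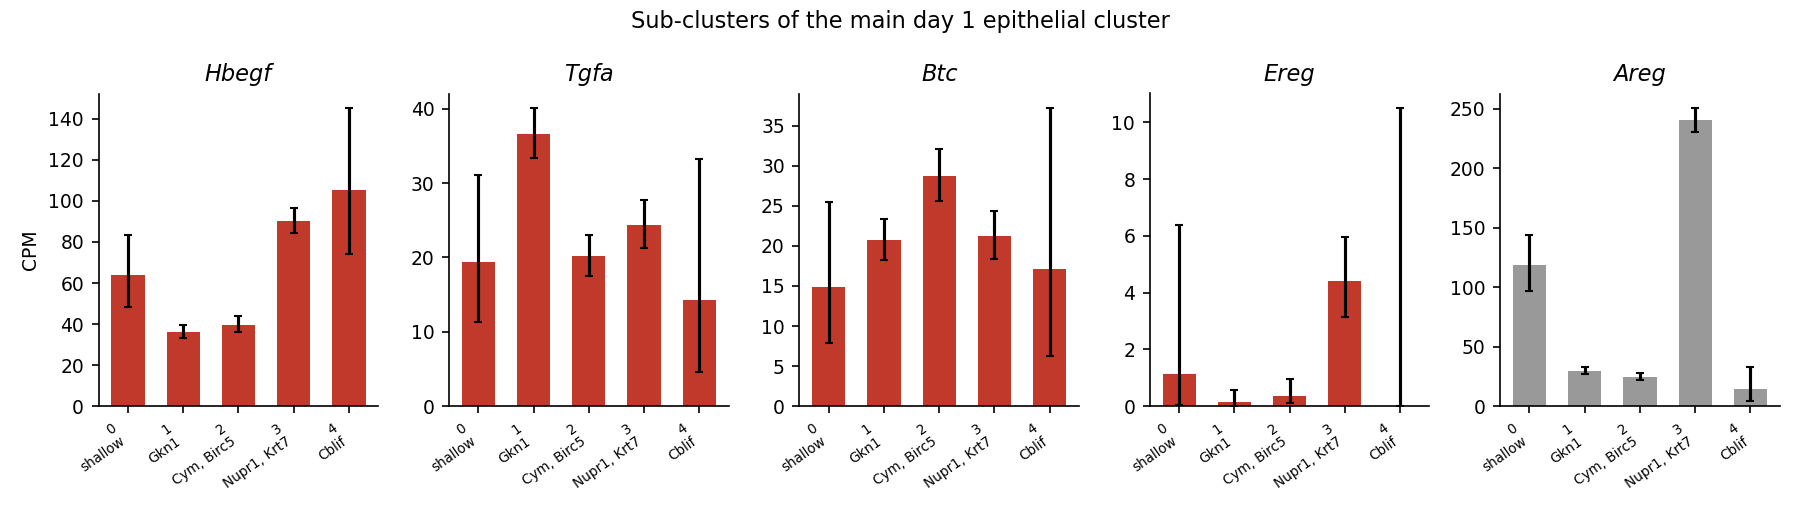
Levels (CPM, linear axes) of the 4 ligand genes and, in grey, Areg in the 5 sub-clusters of the main day 1 cluster, labelled by leading genes; error bars are 95% Poisson intervals. Tgfa is highest in sub-cluster 1 at 36.6 CPM, Btc in sub-cluster 2 at 28.7 CPM, and Ereg in sub-cluster 3 at 4.39 CPM, where Areg is at 240 CPM.

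Cells with UMIs of several ligand genes were deep cells, found most often at day 1. UMIs of at least 3 of the 4 members were found in 146 and 10 day 1 cells (3 and 4 members), against 13 and 0 untreated cells. Those day 1 cells had a median of 43029.5 and 76445.5 UMIs, far above the 2916 of all day 1 epithelial cells, and cells with none had 1265.

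Day 3 was set against day 1 to follow the ligand genes into recovery. Hbegf at day 3 was at a log2 ratio of -1.34 (-1.45 to -1.22) to day 1, Btc at -1.02 (-1.19 to -0.86), Ereg at -3.15 (-4.66 to -1.92) and Tgfa at -0.40 (-0.53 to -0.27). Hbegf, Btc and Ereg were thus past 2-fold lower, as were 7.34% of 21023 genes, while 13.3% were past 2-fold higher and the all-gene median was 0.13. Areg was at -4.42 (-4.67 to -4.19). In pit-like cells Tgfa was at 0.06 (-0.50 to 0.69), and in parietal-like cells at -1.40 (-2.04 to -0.72). Against untreated, Tgfa at day 3 was at 1.10 (0.95 to 1.26), Btc at 0.58 (0.39 to 0.77) and Hbegf at 0.17 (0.05 to 0.30), while the median of 21413 genes was 0.64. With TMM factors, which brought that median to 0.004, Tgfa was at 0.47 (0.31 to 0.63), Btc at -0.05 (-0.25 to 0.14) and Hbegf at -0.46 (-0.59 to -0.33). The sign of Hbegf against untreated thus turned with the scaling, and Hbegf lay below the all-gene median under both. For Btc the interval with TMM factors spanned 0. Cells named pit-like were 58.1% of day 3 cells, 14.8% of day 1 cells and 33.7% of untreated cells. The day 1 share and the pit-like ratio leave out the unnamed cluster 7. Its sub-cluster 1, led by the pit genes Gkn1 and Gkn2, held a further 23.0% of day 1 cells, with Tgfa at 36.6 CPM. The part of this makeup in the Tgfa level was not tested.

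Around the ligands, Egfr was at 11.6 CPM at day 3 against 14.6 at day 1, Erbb2 at 36.3 against 38.4, Erbb3 at 46.9 against 56.1 and Erbb4 at 14.6 against 10.6, and 0 of the 4 receptors was past 2-fold. Of 11 ERK response genes 5 were past 2-fold lower and 0 higher, among them Plaur at 4.93 against 77.6 CPM. Of 20 shedding and transport genes 4 were lower and 1 higher, with Adam8 at 0.381 against 8.26 CPM. Of 15 feedback genes Spry4 was lower and Dusp6 higher, the second at 26.9 against 8.90 CPM. Of 7 other ligand genes 1 was lower (Areg) and 1 higher (Egf, at 1.93 against 0.776 CPM). Beside these counts, the shares of all genes were 13.3% past 2-fold higher and 7.34% lower. With TMM factors 6 ERK response genes, 4 shedding and transport genes, 3 feedback genes and 2 other ligand genes were past 2-fold lower, and 0, 1, 1 and 1 higher. Under that scaling 10.9% of all genes were past 2-fold higher and 8.91% lower.

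The library with AREG was set against day 3 alone to ask whether added AREG goes with other levels of the remaining ligands. Hbegf, Tgfa and Btc were within 2-fold. Ereg, with 2 UMIs with AREG and 6 without, was under the minimum of 10 UMIs for a call, at -1.89 (-5.23 to 0.59). In this comparison 1.91% of 21550 genes were past 2-fold higher and 5.45% lower, and the all-gene median was -0.04. Tgfa was lower with AREG, at 15.2 against 19.9 CPM, a log2 ratio of -0.39 (-0.54 to -0.25). Hbegf was at 0.07 (-0.06 to 0.19) and Btc at 0.15 (-0.02 to 0.33), so that no difference was detectable at this depth beyond those bounds. Areg RNA itself was at 4.51 against 3.74 CPM, a log2 ratio of 0.27 (-0.03 to 0.57).

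In pit-like cells Tgfa was at 27.9 CPM with AREG against 38.6 CPM, a log2 ratio of -0.47 (-0.63 to -0.31). Parietal-like cells had a similar ratio of -0.44 with a wider interval (-0.999 to 0.12), and chief-and-neck-like cells stood at 0.25 (-0.49 to 1.01). The makeup of the pit-like class differed between the libraries. Cluster 5, with low Tgfa, held 39.8% of pit-like cells with AREG and 14.9% at day 3, whereas cluster 8, with high Tgfa, held 19.8% with AREG and 40.3% at day 3. Within cluster 8 Tgfa was at 44.9 against 49.9 CPM, within cluster 6 at 25.2 against 25.8, and within cluster 5 at 17.6 against 24.2 CPM. Each value was lower with AREG, with overlapping intervals in each cluster. The part of cluster makeup in the Tgfa ratio of the class was not tested. Hbegf in pit-like cells was higher with AREG, at 21.4 against 15.7 CPM, or 0.44 (0.23 to 0.66), and in chief-and-neck-like cells lower, at 52.3 against 65.0 CPM, or -0.31 (-0.54 to -0.09).

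The pathway genes were mostly close in the 2 day 3 libraries. Of the 4 receptors, 15 feedback genes and 11 ERK response genes, 0 were past 2-fold in either direction, and of 20 shedding and transport genes 1 was lower (Nkd2, with 8 and 15 UMIs). Egfr was at 10.3 CPM with AREG against 11.6 at day 3, and Erbb3 at 45.6 against 46.9. Median log2 ratios were -0.18 for the receptors, 0.04 for the feedback genes and -0.11 for the ERK response genes, beside -0.04 for all genes. In pit-like cells Egfr was at 17.7 CPM with AREG and 19.3 at day 3, against 3.51 and 3.92 CPM in parietal-like cells. Erbb2 was at 51.4 and 63.9 CPM in pit-like cells, against 19.2 and 16.2 in chief-and-neck-like cells, and Erbb3 at 79.0 and 85.8 CPM, against 24.5 and 21.5. Erbb4 did not share this pattern, at 11.8 and 16.5 CPM in pit-like cells, 13.6 and 12.5 in parietal-like cells and 14.8 and 15.4 in chief-and-neck-like cells.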

How the data were processed

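Cells of mouse gastric corpus were profiled in 4 PIPseq libraries, 1 per group. The deposited matrices hold UMI counts per gene and barcode, not normalized, on GRCm39 per the submitters' processing notes; the sources used here name no aligner or counter. Barcodes were kept from 500 UMIs and 200 genes upward if mitochondrial UMIs did not exceed 50%. Clusters came from scanpy 1.11.5 (2000 variable genes, 40 components, 15 neighbours, Leiden resolution 1, giving 29 clusters) and were named from marker lists; clusters with at least 90% of cells from 1 library needed at least 2 of their own markers among the top 10 genes. That rule, joint names for clusters led by markers of 2 classes and the sub-clustering of the day 1 cluster (resolution 0.4) were set after seeing the data. Scrublet marked 26, 0, 5 and 14 cells (untreated, day 1, day 3 with AREG, day 3), which were removed; at under 0.5% this caller did not work and doublets remain. Counts were summed per library and class. Intervals cover counting error only, since animals cannot be told apart. A gene past 2-fold had at least 10 UMIs over both libraries. TMM factors came from edgeR 4.0.16. Scripts were checked on simulated data. Members and lists were chosen with earlier results of these data known. Named genes were the members, the receptors, Areg, Egf, Epgn, and of each list up to 5 with the largest day 1 ratios at 5 CPM or more; Adam10, Adam17, Dusp6, Spry4, Nkd2 and the immediate early genes were named after their values were seen.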

Additional observations from a re-analysis of the deposited data

Results flagged for a closer look

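Hbegf differed in opposite directions in 2 cell classes at day 3 with AREG against day 3. Its log2 ratio was 0.44 in pit-like cells and -0.31 in chief-and-neck-like cells, and this difference between classes was not tested.

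Ligand gene RNA was also present in barcodes under 50 UMIs, which no comparison uses, and was higher there at day 1 than in the untreated library. Hbegf was at 64.5 against 27.9 CPM, Tgfa at 23.8 against 7.73 CPM and Btc at 20.3 against 6.24 CPM.

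Cells not counted as epithelial also held ligand RNA. A cluster of 154 cells, all from day 1 and led by Nbea, St6galnac3 and Lsamp, had 31.8 CPM of Tgfa from 18 UMIs and 12.4 CPM of Ereg from 7 UMIs, against 9.28 and 0.0326 CPM in untreated epithelial cells.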

How the results depend on the processing

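Of 105 alternatives to the log2 ratios and class levels, 95 stayed within counting error of the value reported, 10 moved past it and 0 reversed. Those that moved were mostly from scaling of day 1 against untreated. TMM factors gave 1.00 for Hbegf, 0.99 for Tgfa and 1.09 for Btc. A total without abundant genes, which left 55.1% of day 1 and 43.4% of untreated UMIs, gave 1.16, 1.16 and 1.25. For day 3 against day 1, TMM gave Hbegf -1.46. For day 3 against untreated, outside that count, TMM turned the sign of Hbegf to -0.46 and gave Tgfa 0.47. Btc came to -0.0546 (-0.25 to 0.14), an interval that spans 0. A pseudocount of 1 CPM brought Ereg to 1.14 for day 1 against untreated and to -0.99 for day 3 against day 1, since it exceeds most Ereg levels. At Leiden resolution 2 the untreated cells with neck markers were at 0.28 for Hbegf against other epithelial cells, beside 2.03 at resolution 1. Thinning to 1000 UMIs moved 13 of 16 shares, but a deeper draw finds a scarce gene in more cells, so a move follows from the depth. At 1000 UMIs the day 1 and untreated shares were 5.67% and 1.98% for Hbegf. They were 3.26% and 1.03% for Tgfa and 2.78% and 0.753% for Btc.

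Without the filter on low counts, genes past 2-fold numbered 8328 higher and 3421 lower for day 1 against untreated (5518 and 1403 with it), 5491 and 3570 for day 3 against day 1 (2787 and 1544), and 2435 and 3639 for day 3 with AREG against day 3 (411 and 1175). Ereg had too few UMIs for class alternatives, which were not run. The TMM counts of pathway genes, the TMM ratios of day 3 to untreated and the Hbegf level without the untreated cluster (29.6 CPM) were added after seeing the data. No paired analysis was possible because each group had 1 library.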

Other observations

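In the 59 untreated cells not counted as epithelial, Hbegf was at 261 CPM (167 to 388) from 24 UMIs and Areg at 456 CPM from 42 UMIs. Of these 59 cells 38 lay in a cluster led by Prap1, S100g, Apoa4, Alpi and Fabp2, which are known from intestinal enterocytes, with pan-epithelial genes at 15000 CPM, and 21 in an endothelial-like cluster. In the 188 such cells of day 1, Ereg was at 13.6 CPM (6.504 to 24.9) from 10 UMIs, Tgfa at 31.2 CPM from 23 UMIs, Hbegf at 27.1 CPM from 20 UMIs and Btc at 12.2 CPM from 9 UMIs.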
